A study of Mus musculus with 9 samples.

Results

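The 10 genes described here encode the machinery of the major histocompatibility complex (MHC) class II pathway and were taken by symbol: Cd74, H2-Aa, H2-Ab1, H2-Eb1, H2-DMa, H2-DMb1, H2-DMb2, H2-Oa, H2-Ob and Ciita. All 10 had a row among the 19517 genes counted in at least 3 cell barcodes. They were followed in Lin- cKit+ Sca1+ (LSK) cells, the bone marrow fraction that holds the blood stem cells and multipotent progenitors, sorted from C57BL/6 mice. The 3 groups of 3 samples were young mice of 10-12 weeks injected with cyclodextrin, aged mice of more than 80 weeks injected with cyclodextrin, and aged mice injected with CASIN, an inhibitor of Cdc42 activity. CASIN was given at 25 mg/kg intraperitoneally in cyclodextrin once every 24 h for 4 days, and marrow was taken on day 5. Hence all 3 groups received the vehicle, no young mice received CASIN, and cells of every group were viably frozen and thawed before 10x Genomics 3' v3 libraries were made together with CITE-seq libraries. Libraries were sequenced in 2 batches, with replicates 1 and 2 of the young and of the CASIN group in batch 1 beside replicate 1 of the aged group, and the other replicates in batch 2. The labels do not say whether each sample is a separate mouse, so the p-values measure the spread between these samples.

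MHC class II molecules are surface dimers that show peptides from the endosomal route to CD4 T cells. The alpha and beta chains of I-A (H2-Aa, H2-Ab1) and the beta chain of I-E (H2-Eb1) assemble on the invariant chain Cd74, which blocks the peptide groove and steers the complex to endosomes. There the peptide editor H2-DM (H2-DMa with H2-DMb1 or H2-DMb2) releases the remaining fragment of the invariant chain, and H2-DO (H2-Oa with H2-Ob) restrains H2-DM. Ciita, the class II transactivator, binds no DNA itself and is recruited to a composite promoter element whose X and Y boxes are held by RFX, CREB and NF-Y. B cells, dendritic cells and macrophages are the best known expressing cells, and C57BL/6 mice carry no functional I-E alpha gene, so their I-E beta chain has no partner of its own.

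Apart from Cd74 and Ciita, the members lie together on chromosome 17 of GRCm38, from H2-Oa (chr17:34092340-34095234) through H2-DMa (chr17:34119541-34139101), H2-DMb2 (chr17:34143307-34151555), H2-DMb1 (chr17:34153072-34160230), H2-Ob (chr17:34238903-34254414), H2-Ab1 (chr17:34257689-34269419) and H2-Aa (chr17:34282744-34287823) to H2-Eb1 (chr17:34305867-34316674). H2-Aa is read from the minus strand and the other 7 from the plus strand. Ciita lies at chr16:10480059-10528418 on the plus strand.

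The letters that the class II promoters share are shown as a description, and no link to the changes described below was tested. RefSeq promoter sequences (GRCm38.p6, 250 bases before to 50 bases after a start site) were at hand for 7 members. Both strands were searched for TGATTGG, a Y box run whose complement holds CCAAT, and for AACNNNTGA, taken from the X box. These letters were chosen with the sequences in view. In the 6 stretches of 82 bases below, written 5′ to 3′ along each gene's own strand, capitals mark the matches and the rest is in lower case:
H2-Aa: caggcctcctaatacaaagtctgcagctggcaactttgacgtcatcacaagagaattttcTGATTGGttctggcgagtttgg
H2-Eb1: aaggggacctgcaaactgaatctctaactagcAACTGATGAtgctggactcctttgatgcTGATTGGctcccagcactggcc
H2-DMb1: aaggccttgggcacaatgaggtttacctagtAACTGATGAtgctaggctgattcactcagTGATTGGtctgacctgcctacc
H2-DMb2: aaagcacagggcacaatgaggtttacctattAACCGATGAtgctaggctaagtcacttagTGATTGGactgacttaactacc
H2-Oa: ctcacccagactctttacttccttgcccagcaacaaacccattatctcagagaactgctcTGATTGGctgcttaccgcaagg
H2-Ob: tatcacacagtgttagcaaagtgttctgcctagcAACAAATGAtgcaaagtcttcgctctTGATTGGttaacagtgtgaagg

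The stretches come from chr17:34287852-34287933 (minus strand) for H2-Aa and, on the plus strand, chr17:34305746-34305827 for H2-Eb1, chr17:34153068-34153149 for H2-DMb1, chr17:34145097-34145178 for H2-DMb2, chr17:34092274-34092355 for H2-Oa and chr17:34238786-34238867 for H2-Ob. TGATTGG was found in 6 of the 8 promoter entries of the 7 members, against 7.82% of all 32851 promoters of the same length. AACNNNTGA was found in 4 of the 8, against 11.9% of all promoters, and both occurred in 4 of the 8, against 0.95%. Since the letters were chosen with these sequences in view, the shares are a description and no test. In these 4 promoters (H2-DMb1, H2-DMb2, H2-Eb1 and H2-Ob) the first letters of the matches stood 26 to 29 bases apart, without overlap. The 2 H2-DMa entries held neither run of letters. A match describes the sequence and was not measured as a binding site here, and the absence of a match covers only these letters in this window.

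Of 32387 deposited barcodes, 15856 cells passed the study's filters, 1112 to 2417 per library, with a median of 9531.5 to 14622 UMIs (unique molecular identifiers, each counting 1 captured transcript end) per cell. Every LSK library held the genes of the sort, with a Kit UMI in 68.7 to 89.8% and a Ly6a (Sca1) UMI in 54.2 to 76.2% of cells. The batches also differed in sex-linked transcripts. Ddx3y stood at 43.6 to 62.8 CPM (UMIs of a gene per 1e6 UMIs of the cells summed) in batch 1 and had 0 UMIs in batch 2, while Xist stood at 2357 to 2794 CPM in batch 2 and at no more than 0.163 CPM in batch 1. Batch and sex therefore cannot be told apart, and the median mitochondrial share per cell was 2.65 to 3.49% in batch 1 and 5.03 to 7.0% in batch 2. Among the cells kept, 125 carried a barcode that also occurred in another library.

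Cells were divided by 2 transcripts that are not members. The 7650 cells with a UMI of Procr, which encodes the stem cell surface protein EPCR, are called Procr-positive. The 4545 cells with a UMI of Flt3, a receptor of multipotent and lymphoid-primed progenitors, but none of Procr are called Flt3-positive, and the 3661 with neither are called double-negative. The division sorted other markers too, since an Hlf UMI was seen in a median over samples of 87.4% of Procr-positive against 65.9% of Flt3-positive cells, and a Dntt UMI in 16.9% against 58.7%. By sample, 16.3 to 60.2% of Procr-positive cells had a Flt3 UMI as well. A cell with 0 UMIs of a gene may still express it, so the divisions are not pure cell types. Procr-positive cells made up 40.3% ± 4.58 of young, 54.8% ± 3.04 of aged and 51.0% ± 10.1 of CASIN cells (SD, n = 3 samples each). UMIs were summed per sample within each division, so that samples and not cells were compared.

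In Procr-positive cells of aged mice, the invariant chain Cd74, the I-A alpha chain H2-Aa and the I-E beta chain H2-Eb1 rose 2.49 to 2.68 times over young cells, the DM beta chain H2-DMb1 rose 1.35 times and the DO beta chain H2-Ob fell to 0.542 times. The H2-DMb1 call was at the edge of the threshold, and leaving out any single sample lost it. The calls of Cd74, H2-Aa and H2-Eb1 were lost without young replicate 2 or without young replicate 3. That of H2-Eb1 was also lost without young replicate 1, aged replicate 2, aged replicate 3 or CASIN replicate 3. The H2-Ob call was lost without any 1 of the young samples, without aged replicate 2 or without CASIN replicate 1. The other 5 members did not pass the test in this comparison. In CASIN cells, Cd74, H2-Aa and H2-Eb1 stood 2.32 to 2.87 times above young, and no member differed from aged cells past the threshold. Aged over young addresses ageing, CASIN over aged addresses the drug, and both share the aged samples.

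Cd74, the invariant chain, stood at 108, 72.0 and 91.5 CPM in young replicates 1, 2 and 3, at 142, 288 and 305 CPM in the aged replicates, and at 152, 280 and 195 CPM in the CASIN replicates. Every aged and every CASIN sample lay above every young sample, and aged replicate 1, the only aged library of batch 1, was the lowest of the aged. The group levels were 90.4 ± 17.9, 245 ± 89.2 and 209 ± 65.1 CPM (SD, n = 3 each). Aged over young gave a log2 fold change of 1.32 (SE 0.29, adjusted p = 0.020, edgeR quasi-likelihood test with sequencing batch as a term and Benjamini-Hochberg adjustment over 12707 genes). That of CASIN over young was 1.22 (SE 0.27, adjusted p = 0.0137). When each cell was first thinned to 4000 UMIs, as described below, aged over young was 0.98 (edgeR adjusted p = 0.0654) and not called.

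H2-Aa, the I-A alpha chain, was counted at 47.2, 34.1 and 43.0 CPM in the young samples, at 65.8, 137 and 137 CPM in the aged and at 86.6, 151 and 99.9 CPM in the CASIN samples. As with Cd74, no aged or CASIN sample overlapped the young range. The log2 fold change was 1.34 (SE 0.29, edgeR adjusted p = 0.0172) in aged over young and 1.45 (SE 0.27, adjusted p = 0.00625) in CASIN over young, the lowest adjusted p of any member in these comparisons of Procr-positive cells.

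H2-Ab1, the I-A beta chain that pairs with H2-Aa, behaved otherwise in aged replicate 1. Its levels were 84.7, 68.6 and 89.8 CPM in young, 76.0, 165 and 169 CPM in aged and 92.2, 151 and 118 CPM in CASIN samples. The aged replicate of batch 1 thus lay inside the young range, while all 3 CASIN samples lay above it. Neither log2 fold change passed the test, at 0.58 (SE 0.25, edgeR adjusted p = 0.163) in aged over young and 0.59 (SE 0.23, adjusted p = 0.103) in CASIN over young.

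H2-Eb1, the I-E beta chain, was read at 37.1, 24.8 and 23.8 CPM in young, 44.5, 92.8 and 96.8 CPM in aged and 58.6, 124 and 66.5 CPM in CASIN samples. The groups again did not overlap between young and either aged group. The log2 fold change was 1.42 (SE 0.37, edgeR adjusted p = 0.0380) in aged over young and 1.52 (SE 0.34, adjusted p = 0.0141) in CASIN over young.

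**Figure D1:**
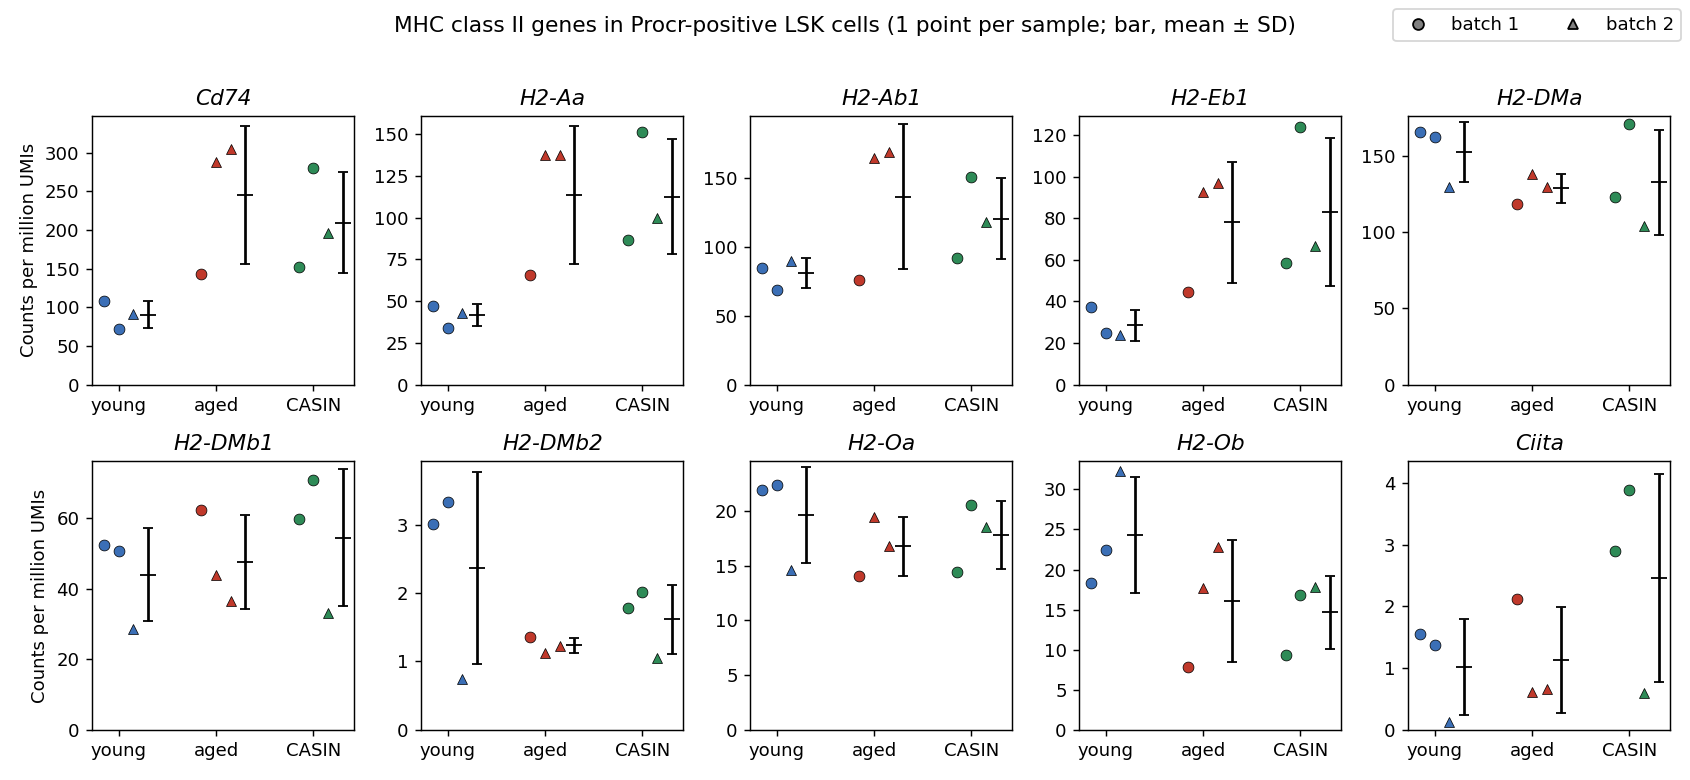
Levels of the 10 MHC class II genes in Procr-positive cells, in CPM on axes that start at 0, with 1 point per sample, bars for the group mean ± SD, and different symbols for the sequencing batches. For Cd74, H2-Aa and H2-Eb1 the 3 young samples sit below all aged and CASIN samples, whereas for H2-DMa and H2-Oa the groups overlap.

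The peptide editor genes did not move as one. H2-DMa, the DM alpha chain, stood at 166, 162 and 130 CPM in young, 119, 138 and 129 CPM in aged and 123, 171 and 104 CPM in CASIN samples. These ranges overlapped, and the log2 fold change was -0.13 (SE 0.16, edgeR adjusted p = 0.647) in aged over young and -0.21 (adjusted p = 0.364) in CASIN over young. H2-DMb1, a DM beta chain, had 52.4, 50.8 and 28.7 CPM in young, 62.3, 43.9 and 36.5 CPM in aged and 59.7, 70.8 and 33.1 CPM in CASIN samples. The lowest value of each group came from batch 2, and the group ranges overlapped. With the batch term the log2 fold change of H2-DMb1 was 0.43 (SE 0.12, edgeR adjusted p = 0.0499) in aged over young, at the edge of the threshold. In CASIN over young it was 0.30 (SE 0.11, edgeR adjusted p = 0.0998). The call in aged over young was lost when any single sample was left out. H2-DMb2, the second DM beta chain gene, was barely seen, at 0.748 to 3.34 CPM over all 9 samples and 40 to 81 UMIs per group, and no difference passed the test, with a log2 fold change of -0.51 in aged over young and -0.51 in CASIN over young. Because H2-DMb1 and H2-DMb2 are close copies, reads that fit both could go uncounted.

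H2-Ob, the DO beta chain, was the one called member that fell. It was counted at 18.3, 22.4 and 32.3 CPM in young, 7.83, 17.7 and 22.8 CPM in aged and 9.39, 16.8 and 17.8 CPM in CASIN samples. The aged samples overlapped the young range, but within each batch the aged level was lower, by a log2 difference of -1.36 in batch 1 and -0.68 in batch 2. The fitted log2 fold change was -0.88 (SE 0.24, edgeR adjusted p = 0.0435) in aged over young and -0.73 (SE 0.23, adjusted p = 0.0523) in CASIN over young. H2-Ob lost its call in aged over young when any 1 young sample, aged replicate 2 or CASIN replicate 1 was left out. Its partner H2-Oa stood at 14.6 to 22.4 CPM in young, 14.0 to 19.5 CPM in aged and 14.4 to 20.5 CPM in CASIN samples, with a log2 fold change of -0.20 (SE 0.21, adjusted p = 0.605) in aged over young and -0.14 (adjusted p = 0.660) in CASIN over young.

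Ciita, the transactivator, was scarce. Its values were 1.55, 1.38 and 0.125 CPM in young, 2.13, 0.608 and 0.662 CPM in aged and 2.91, 3.89 and 0.592 CPM in CASIN samples, from 36, 36 and 64 UMIs per group. The lowest value of each group came from batch 2, and the groups overlapped. CASIN over young passed the test, at a log2 fold change of 1.24 (SE 0.34, edgeR adjusted p = 0.0342), and aged over young did not, at 0.92 (SE 0.40, adjusted p = 0.172). At so few UMIs the call for Ciita held in 10 of the 21 alternatives that tested it.

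In aged over young, 5 of the 10 members were called in Procr-positive cells (4 higher and 1 lower), where 9.41% of the 12707 genes tested were called. The members' median log2 fold change was 0.51, against 0.01 over all genes tested. In CASIN over young, 4 of 10 were called, all higher (Cd74, H2-Aa, H2-Eb1 and Ciita), where 16.5% of genes were called. These 2 comparisons share the young samples, so their values are not independent. In aged over young 0 members were called without young replicate 2 or without young replicate 3, where the log2 fold changes of Cd74 were 1.24 (edgeR adjusted p = 0.0674) and 1.13 (adjusted p = 0.0803). Counts of called members were 2 without young replicate 1 or aged replicate 2, and 3 without aged replicate 3, CASIN replicate 1 or CASIN replicate 3. The count for CASIN over young was 1 without young replicate 2. With no batch term 0 members were called in any division, with Cd74 in Procr-positive cells at 1.44 (adjusted p = 0.266) in aged over young.

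Within a batch, Cd74, H2-Aa and H2-Eb1 were higher in aged than in young cells in both, but by different amounts, and H2-Ab1 was higher in batch 2. The log2 difference of Cd74 was 0.69 in batch 1, where 1 aged sample met 2 young, and 1.69 in batch 2, where 2 aged met 1 young. For H2-Aa it was 0.71 and 1.67, for H2-Eb1 0.55 and 1.99, and for H2-Ab1 -0.00 and 0.90. A fit with batch by group terms called no member in Procr-positive cells, with the lowest edgeR adjusted p at 0.201 for H2-Oa. For aged over young, its estimates of batch 2 minus batch 1 were positive for every member. They were 1.44 (SE 0.53, edgeR adjusted p = 0.233) for H2-Eb1, 0.99 for Cd74, 0.95 for H2-Aa and 0.87 for H2-Ab1. These 4 genes, H2-Oa and H2-DMb2 had an unadjusted edgeR p below 0.05. With only 1 or 2 libraries of each group in a batch, this fit can miss a difference between batches. CASIN over young was more even, with batch 1 and batch 2 values of 1.23 and 1.09 for Cd74, 1.51 and 1.21 for H2-Aa, 1.49 and 1.48 for H2-Eb1 and 0.63 and 0.40 for H2-Ab1.

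CASIN over aged gave 0 of 10 members in Procr-positive cells, where 0% of genes were called by edgeR. No member reached even an unadjusted p below 0.05, against 462 of the 12707 genes, and DESeq2 called 0 members and 0 genes. The log2 fold changes of the members ran from -0.13 to 0.32. For Cd74 the value was -0.10 (SE 0.29), for H2-Aa 0.11 (SE 0.28), for H2-Eb1 0.10 (SE 0.36) and for H2-Ab1 0.00 (SE 0.24). The values were -0.08 for H2-DMa, -0.13 for H2-DMb1, 0.00 for H2-DMb2, 0.05 for H2-Oa, 0.15 for H2-Ob and 0.32 for Ciita. The batches pointed opposite ways. In batch 1 CASIN stood above aged replicate 1, by log2 differences of 0.53 for Cd74, 0.80 for H2-Aa, 0.94 for H2-Eb1 and 0.63 for H2-Ab1. In batch 2 CASIN replicate 3 stood below the 2 aged samples, by -0.60, -0.46, -0.51 and -0.50. Each of these within-batch values rests on a single library on one side, and the difference between batches was not tested for this comparison.

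**Figure D2:**
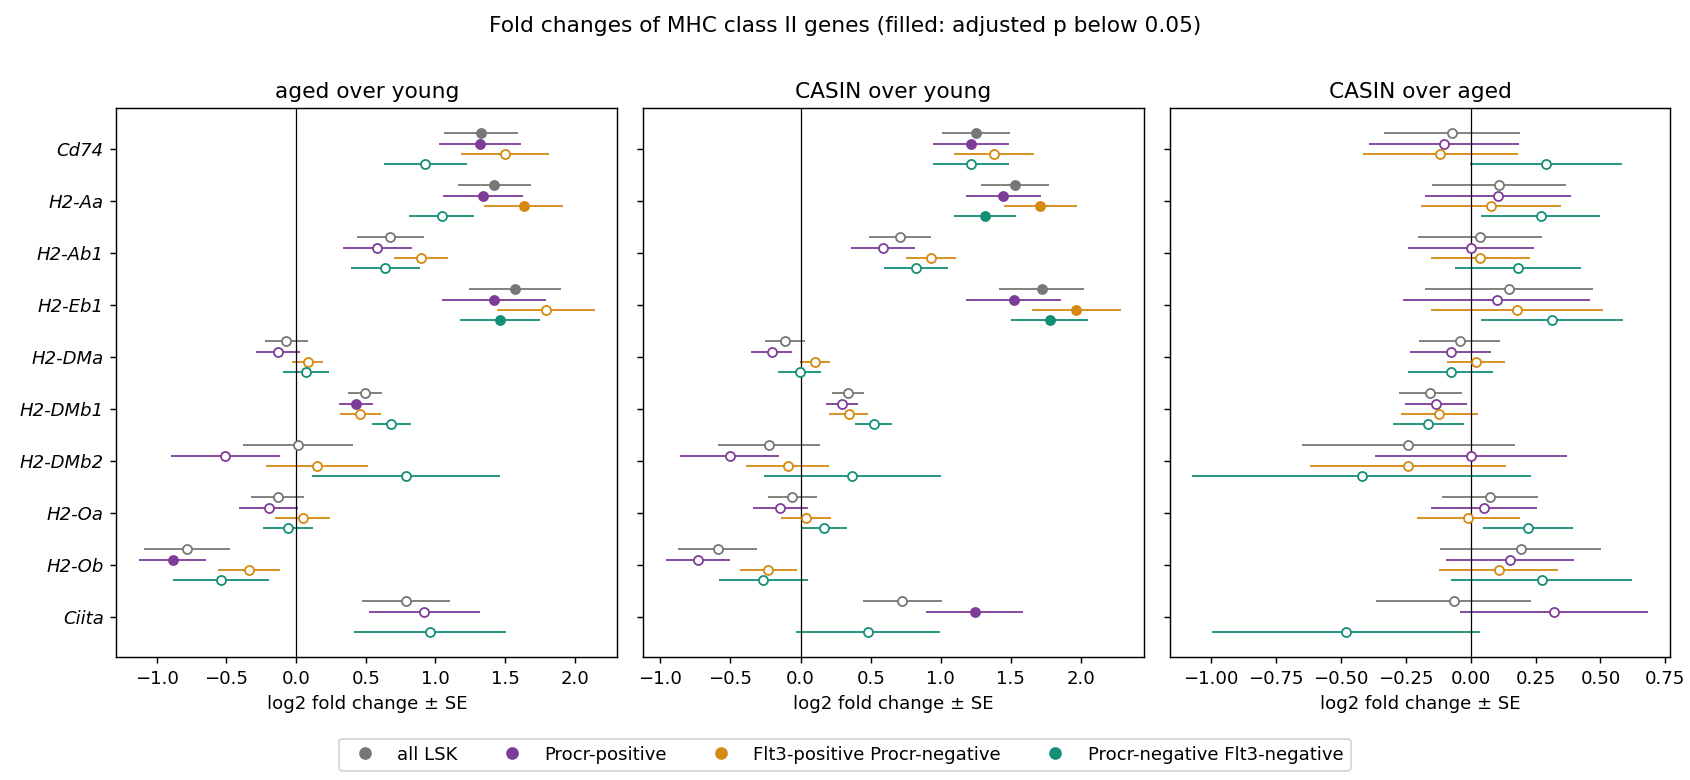
Log2 fold changes of the 10 members with their standard errors (bars) from the edgeR fits, by comparison and cell division, with filled symbols for an adjusted p below 0.05. H2-Aa and H2-Eb1 lie well to the right of 0 in aged over young and CASIN over young in every division, and CASIN over aged stays near 0.

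Outside the Procr-positive division, H2-Aa and H2-Eb1 accounted for all calls. In Flt3-positive cells, H2-Aa stood at 26.2, 21.3 and 34.1 CPM in young, 49.2, 165 and 102 CPM in aged and 51.4, 99.7 and 117 CPM in CASIN samples, without overlap between young and the others. Its log2 fold change was 1.63 (SE 0.28, edgeR adjusted p = 0.0496) in aged over young and 1.71 (SE 0.26, adjusted p = 0.0197) in CASIN over young. H2-Eb1 stood at 16.5 to 22.9 CPM in young, 40.1 to 134 CPM in aged and 44.3 to 95.3 CPM in CASIN samples, with 1.79 (SE 0.35, adjusted p = 0.0705) and 1.97 (SE 0.32, adjusted p = 0.0230). Cd74, at 58.9 to 67.6 CPM in young, 117 to 363 CPM in aged and 95.8 to 235 CPM in CASIN samples, missed the threshold in both, at 1.496 (SE 0.31, adjusted p = 0.103) and 1.38 (SE 0.29, adjusted p = 0.122). So did H2-Ab1, at 0.89 (SE 0.19, adjusted p = 0.115) and 0.93 (SE 0.18, adjusted p = 0.0770). The aged over young and CASIN over young values were 0.08 and 0.10 for H2-DMa, 0.46 and 0.34 for H2-DMb1, 0.15 and -0.09 for H2-DMb2, 0.05 and 0.04 for H2-Oa and -0.34 and -0.23 for H2-Ob, none past the threshold. In CASIN over aged the log2 fold changes were -0.12 for Cd74, 0.08 for H2-Aa, 0.04 for H2-Ab1, 0.18 for H2-Eb1, 0.02 for H2-DMa, -0.12 for H2-DMb1, -0.24 for H2-DMb2, -0.01 for H2-Oa and 0.11 for H2-Ob. Ciita did not pass the filter on low counts here, which left 9 members tested.

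Counts of called members in Flt3-positive cells were 1 of 9 in aged over young, where 0.123% of the 11411 genes were called, 2 of 9 in CASIN over young (0.175%), and 0 of 9 in CASIN over aged (0%). In the last, no member had an unadjusted p below 0.05, against 794 genes, and DESeq2 called 0 members. Both comparisons with young lost every call without CASIN replicate 3 and without either young sample of batch 1 (0 members). Without young replicate 3 or aged replicate 3, 0 were called in aged over young, and without CASIN replicate 2, 0 in CASIN over young. Leaving out aged replicate 1 raised the count in aged over young to 4 and leaving out aged replicate 2 raised that in CASIN over young to 4, while the counts in aged over young were 3 without CASIN replicate 1 and 2 without CASIN replicate 2. Without young replicate 3, 1 was called in CASIN over young.

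Double-negative cells gave a call for H2-Eb1 in aged over young, from 18.2 to 27.4 CPM in young and 43.8 to 99.8 CPM in aged samples, at 1.46 (SE 0.29, edgeR adjusted p = 0.0490). This was 1 of 10 members, where 0.823% of 11546 genes were called. CASIN over young gave 2 of 10 (0.546% of genes), H2-Aa at 1.31 (SE 0.22, adjusted p = 0.0313) and H2-Eb1 at 1.78 (SE 0.27, adjusted p = 0.0230). CASIN over aged gave 0 of 10 (0% of genes), with no member at an unadjusted p below 0.05 against 525 genes, and 0 members by DESeq2. The members not called had log2 fold changes in aged over young and CASIN over young of 0.93 and 1.22 for Cd74, 0.64 and 0.82 for H2-Ab1, 0.07 and -0.01 for H2-DMa, 0.68 and 0.52 for H2-DMb1, 0.79 and 0.37 for H2-DMb2, -0.06 and 0.17 for H2-Oa, -0.54 and -0.27 for H2-Ob and 0.96 and 0.48 for Ciita, and H2-Aa stood at 1.04 in aged over young. Values in CASIN over aged were 0.29 for Cd74, 0.27 for H2-Aa, 0.18 for H2-Ab1, 0.31 for H2-Eb1, -0.08 for H2-DMa, -0.16 for H2-DMb1, -0.42 for H2-DMb2, 0.22 for H2-Oa, 0.27 for H2-Ob and -0.48 for Ciita. These calls also rested on single libraries. In aged over young, 0 were called without any 1 of the 3 young samples, aged replicate 2, CASIN replicate 1 or CASIN replicate 3, and 4 without aged replicate 1. For CASIN over young, 0 were called without young replicate 1, young replicate 2, CASIN replicate 1 or CASIN replicate 2, and 4 without aged replicate 1.

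Over all LSK cells together, Cd74 (1.33, SE 0.28, edgeR adjusted p = 0.0282), H2-Aa (1.42, adjusted p = 0.0235) and H2-Eb1 (1.57, adjusted p = 0.0328) were called in aged over young. These 3 of 10 members compare with 4.1% of 13642 genes. The same 3 genes were called in CASIN over young (4.27% of genes), at 1.25, 1.53 and 1.72. CASIN over aged gave 0 of 10 members (0% of genes), with no member at an unadjusted p below 0.05 against 439 genes, and 0 by DESeq2. For the members not called, aged over young and CASIN over young gave 0.67 and 0.71 for H2-Ab1, -0.07 and -0.11 for H2-DMa, 0.496 and 0.34 for H2-DMb1, 0.01 and -0.23 for H2-DMb2, -0.13 and -0.06 for H2-Oa, -0.78 and -0.59 for H2-Ob and 0.79 and 0.73 for Ciita. CASIN over aged gave -0.07 for Cd74, 0.11 for H2-Aa, 0.04 for H2-Ab1, 0.15 for H2-Eb1, -0.04 for H2-DMa, -0.16 for H2-DMb1, -0.24 for H2-DMb2, 0.07 for H2-Oa, 0.19 for H2-Ob and -0.07 for Ciita. Without any 1 of the young samples the count in aged over young was 0, and without aged replicate 2 or CASIN replicate 3 it was 1. For CASIN over young it was 0 without young replicate 1 or young replicate 2.

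Within samples, the members were spread unevenly between the divisions. H2-Ob was lower in Procr-positive than in Flt3-positive cells in 9 of 9 samples, by a mean log2 ratio of -1.29 ± 0.41 (SD), and H2-DMa in 9 of 9, by -0.41 ± 0.19. H2-Ab1 was lower in 8 of 9 (-0.26 ± 0.30). Cd74, H2-Aa and H2-Eb1 were higher in Procr-positive cells in 7 of 9 samples each, at 0.34 ± 0.40, 0.40 ± 0.40 and 0.25 ± 0.49, and the 2 exceptions for Cd74 were aged replicate 2 and CASIN replicate 3. These ratios are given as a description. Single Flt3-positive cells with very many class II UMIs, described at the end, can weigh on them.

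Whether a group difference was larger in one division than in the other was tested directly, as Procr-positive minus Flt3-positive log2 fold changes in a fit with a term for each sample. In aged over young, 0 of 10 members differed, where 7.31% of 12784 genes did; H2-DMa and H2-Ob had an unadjusted p below 0.05, and H2-Ob came closest, at -0.52 (SE 0.17, edgeR adjusted p = 0.0690). For Cd74 the difference was -0.12 (SE 0.23) and for H2-Aa -0.22 (SE 0.18). In CASIN over aged, 0 of 10 differed, where 0.0704% of genes did, with no member at an unadjusted p below 0.05. In CASIN over young, 2 of 10 differed, where 14.5% of genes did, a share close to that of the members. These were H2-DMa, at -0.31 (SE 0.09, adjusted p = 0.0207), and H2-Ob, at -0.48 (SE 0.15, adjusted p = 0.0459). Hence no larger rise of the classical genes in Procr-positive than in Flt3-positive cells was detected. Many Procr-positive cells had Flt3 UMIs too, so the divisions are not fully apart. The count in aged over young was 4 without aged replicate 3. That in CASIN over young was 4 without aged replicate 3, 1 without CASIN replicate 2 and 0 without CASIN replicate 1, CASIN replicate 3 or either young sample of batch 1.

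A higher sum can come from more cells with a UMI or from more UMIs per cell. To compare detection at equal depth, each cell was thinned to 4000 UMIs, which left out 80 of the 7650 Procr-positive cells (9 young, 37 aged and 34 CASIN). A Cd74 UMI was then found in 25.6, 18.5 and 17.6% of young, 20.5, 41.2 and 40.4% of aged and 27.5, 44.7 and 31.3% of CASIN Procr-positive cells. By this share aged replicate 1 lay inside the young range, although its summed Cd74 level lay above that range. The difference of aged and young means was 13.5 percentage points (two-sided exact permutation test over samples, p = 0.2), with -1.57 in batch 1 and 23.2 in batch 2. With 3 samples against 3 this test cannot go below 0.1.

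An H2-Aa UMI was found in 15.1, 12.8 and 14.8% of young, 18.3, 33.1 and 32.5% of aged and 20.4, 36.3 and 26.0% of CASIN cells. The difference of aged and young was 13.7 percentage points (exact permutation p = 0.1, the smallest possible), with 4.29 in batch 1 and 18.1 in batch 2. The shares for H2-Eb1 were 10.9, 8.28 and 8.62% in young, 13, 24.4 and 25.4% in aged and 14.2, 31.9 and 19.2% in CASIN samples, a difference of aged and young of 11.7 points (exact permutation p = 0.1). For both genes the young samples lay below all others. H2-Ab1 was found in 22.3, 20.3 and 26.8% of young, 19.0, 37.8 and 42.0% of aged and 25.1, 35.8 and 29.2% of CASIN cells, and its difference of 9.80 points had an exact permutation p of 0.4. CASIN and aged differed by -2.91 to 0.84 points for these 4 genes (exact permutation p from 0.7 to 1). These averages join opposite batches, with CASIN above aged by 10.1 to 15.6 points in batch 1 and differing from it by -10.7 to -5.73 points in batch 2, and the permutation test does not take batch into account. Without thinning, the aged and young difference of Cd74 was 14.8 points and that of H2-Aa 15.9 points.

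H2-DMa had a UMI in 48.7, 46.7 and 39.8% of young, 36.1, 40.6 and 40.1% of aged and 34.6, 49.6 and 30.7% of CASIN cells. The aged and young means were -6.16 points apart (exact permutation p = 0.3), and -10.5 points without thinning, which is a value only, since this gene's share did not exceed the background described next. H2-Ob was found in 7.02, 9.06 and 10.2% of young, 2.56, 6.13 and 8.75% of aged and 2.43, 5.18 and 4.93% of CASIN cells. All CASIN samples lay below all young samples for H2-Ob, by 4.56 points on average (-4.56, exact permutation p = 0.1). H2-Oa stood at 5.34 to 9.44%, H2-DMb2 at 0.112 to 1.42% and Ciita at 0 to 1.62% over the 9 samples. A Ciita UMI was found in no thinned cell of young replicate 3 or aged replicate 2, although both had UMIs of the gene at full depth.

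Free RNA in a droplet can give a UMI to a cell that does not express the gene. The 56 granulocyte-committed cells with at least 5 Elane UMIs and at least 4000 UMIs served as a background that should lack class II. A Cd74 UMI was found in 3.57% of them after thinning (exact binomial 95% interval 0.435 to 12.3%), against 30.3% (29.3 to 31.4%) of the other Procr-positive cells. For H2-Aa the shares were 1.79 and 23.8%, for H2-Ab1 8.93 and 28.9%, and for H2-Eb1 1.79 and 17.8%. The median depth before thinning was 27143 UMIs in the Elane cells and 11070.5 in the Procr-positive cells. The intervals cover counting error only. The pooled shares of the 4 genes thus lay above those of the Elane cells. If free RNA adds similar UMIs to each droplet, thinning dilutes it more in the deeper Elane cells. Their shares can therefore understate the background, and how far the 4 genes exceed it is not settled. This holds most for H2-Ab1, whose interval in the Elane cells was 2.96 to 19.6%. The DM genes did not lie above the Elane cells, with H2-DMa in 39.3 and 40.1%, H2-DMb1 in 19.6 and 17.2% and H2-DMb2 in 1.79 and 0.701%. Whether the Elane cells express the DM genes themselves was not tested, and no difference is read from the DM shares. H2-Oa stood at 1.79 and 6.86%, H2-Ob at 0 of 56 cells (interval up to 6.38%) and 6.09%, and Ciita at 0 of 56 and 0.661%, and 56 cells are too few to place these 3 genes above or at the background.

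The UMIs of Cd74, H2-Aa, H2-Ab1 and H2-Eb1 were next summed per thinned cell. A sum of at least 5 was reached by 7.46, 3.75 and 6.70% of young, 6.24, 19.3 and 20.4% of aged and 9.06, 22.0 and 13.3% of CASIN Procr-positive cells. The aged replicates of batch 2 stood far above aged replicate 1, and CASIN replicate 2 of batch 1 was as high as they were. The difference was 9.34 points in aged over young (exact permutation p = 0.3, with 0.630 in batch 1 and 13.2 in batch 2). It was 8.81 points in CASIN over young (p = 0.1 by the exact test, 9.93 and 6.58) and -0.53 points in CASIN over aged (p = 1 by the exact test, 9.30 and -6.58). Conversely, cells with no UMI of the 4 genes made up 55.1, 60.8 and 59.2% of young, 59.8, 34.4 and 31.1% of aged and 51.1, 28.3 and 44.8% of CASIN cells. The mean over all cells was 1.28 UMIs in aged replicate 1, inside the 0.868 to 1.32 of the young samples. Aged and young differed by 1.34 UMIs in this mean (exact permutation p = 0.2). Among cells with any UMI, the mean was 2.72 ± 0.51 UMIs in young, 4.11 ± 0.81 in aged and 3.67 ± 0.38 in CASIN samples (SD, n = 3), an aged and young difference of 1.39 UMIs (exact permutation p = 0.2). Both the share of cells with a UMI and the number per positive cell were therefore higher on average in aged samples. The exact test of 3 against 3 samples cannot go below 0.1 and decides neither. Aged minus young, the share of cells with no UMI differed by 1.84 points in batch 1 and -26.4 in batch 2. The mean per positive cell differed by 0.725 UMIs in batch 1 and 1.34 in batch 2. The cut of 5 is a point on a continuous sum and marks no cell type.

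**Figure D3:**
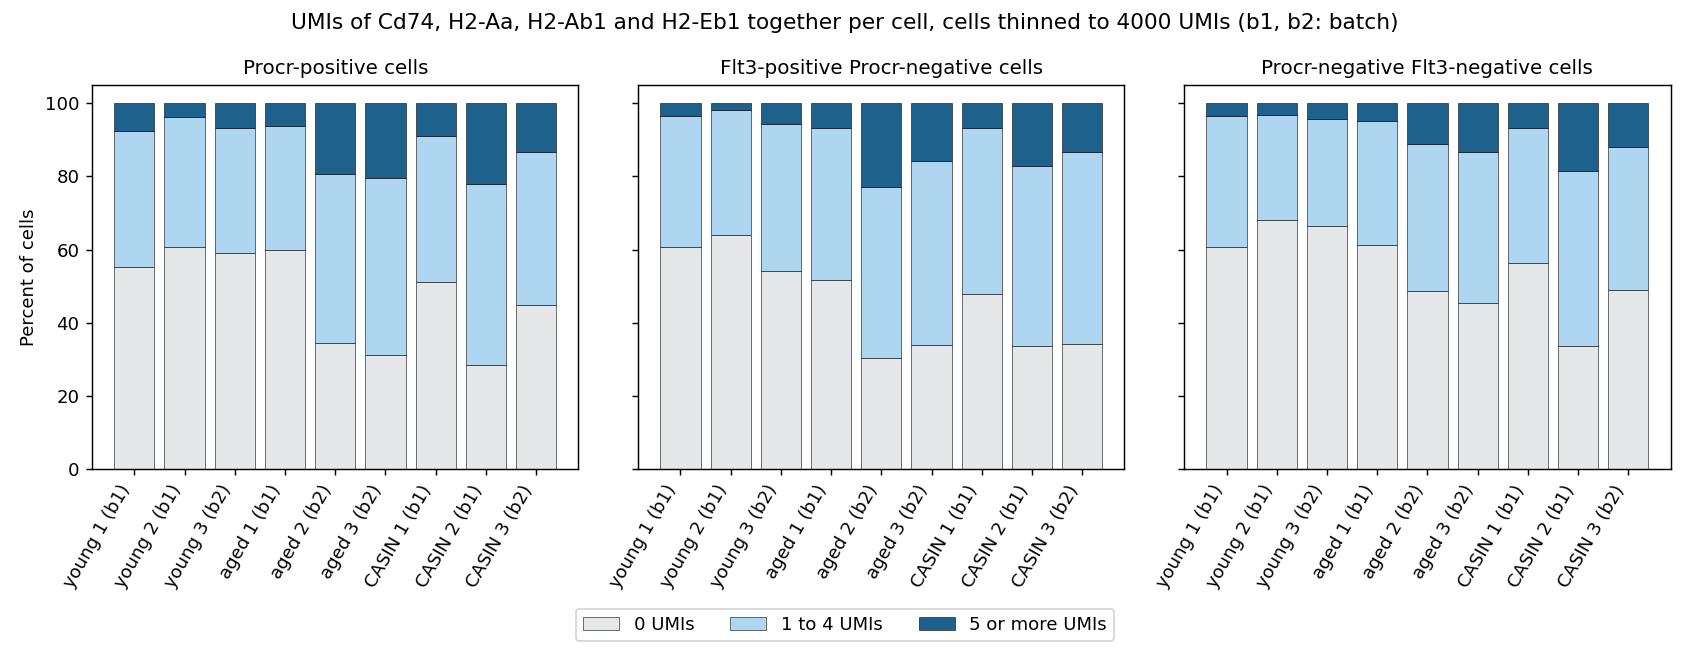
Share of cells, in percent, with 0, 1 to 4, and at least 5 UMIs of Cd74, H2-Aa, H2-Ab1 and H2-Eb1 together, after thinning to 4000 UMIs, with 1 bar per sample and further panels for the Flt3-positive and double-negative cells. Among Procr-positive cells, aged replicates 2 and 3 and CASIN replicate 2 have 19.3 to 22.0% at 5 or more, against 3.75 to 7.46% in the young samples.

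Flt3-positive cells gave shares of the same order, with at least 5 UMIs in 3.55, 1.89 and 5.74% of young, 6.72, 23.0 and 15.9% of aged and 6.74, 17.0 and 13.2% of CASIN cells. Here the aged samples did not overlap the young, and the difference was 11.5 points (exact permutation p = 0.1, with 4.00 in batch 1 and 13.7 in batch 2).

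The 4 genes tended to be found in the same cells. Across Procr-positive cells of a sample, thinned and with log-scaled counts, the mean Pearson correlation over the 9 samples was 0.44 for Cd74 with H2-Aa, 0.41 for Cd74 with H2-Eb1, 0.36 for H2-Aa with H2-Eb1, 0.33 for Cd74 with H2-Ab1, 0.32 for H2-Ab1 with H2-Eb1 and 0.31 for H2-Aa with H2-Ab1. The points are cells that share a library, so these are descriptions. With the sum of the 4 genes, H2-DMb1 and H2-DMa both had a mean r of 0.12, positive in every sample. H2-Oa had a mean r of 0.04 and H2-Ob of 0.02, from sparse counts. No relation is read from these low values. Among the 7182 genes seen in at least 5% of the cells, no gene outside the members reached a mean r of 0.15. The nearest was Ly6a, which encodes the sorting marker Sca1, at 0.14.

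Cells with at least 5 UMIs of the 4 genes were set beside cells with none in the same sample. Flt3 was found in a mean of 22.1% of the former and 15.1% of the latter, and was more frequent in the former in 9 of 9 samples. Vwf, a gene of platelet-biased stem cells, was found in 6.40 against 15%, higher in only 1 of 9. Cd34, a progenitor-side marker like Flt3, was found in 43.0 against 45.7%, higher in 4 of 9. Mecom, a stem-side marker, was found in 47.5 against 41.4%, higher in 5 of 9. No shift from one side to the other is read from these markers. H2-DMb1 stood at 29.0 and 14.9%, higher in 9 of 9 samples, and H2-DMa at 49.0 and 36.2%, higher in 8 of 9. These DM shares are values only, since the DM genes did not exceed the background. H2-Oa stood at 9.80 and 5.84% (higher in 8 of 9) and H2-Ob at 6.01 and 5.69% (5 of 9), shares not placed against the background. Procr itself was not scarcer in them, with a higher mean UMI number in 8 of 9 samples. The former cells were shallower before thinning, at a mean over samples of 9867 UMIs against 11436 for the sample medians. Among cells with none, Flt3 was found in 20.1 to 32.1% in young, 7.08 to 14.8% in aged and 6.96 to 12.2% in CASIN samples. Vwf was found in 1.21 to 2.59%, 7.94 to 25.7% and 21.8 to 27.0% of them. By these markers the make-up of the Procr-positive division differed between young and aged samples. Its part in the differences of summed UMIs was not tested.

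B cells, dendritic cells and macrophages express class II strongly, so their markers were read beside the members in Procr-positive cells. All 9 B cell markers, immunoglobulin genes included, summed to 79.4 to 133 CPM in young, 52.4 to 548 CPM in aged and 57.4 to 175 CPM in CASIN samples. The highest sums were 548 CPM in aged replicate 3 and 256 CPM in aged replicate 2. The 6 B cell markers other than immunoglobulin genes summed to 8.11 to 40.2 CPM in young, 8.51 to 40.1 CPM in aged and 7.57 to 34.3 CPM in CASIN samples. This sum divided by batch, at 32.2 to 40.2 CPM in batch 1 and 7.57 to 9.90 CPM in batch 2. Most of the sum of these 6 was Cd79b, while Pax5 stayed at or below 0.0967 CPM. The 7 dendritic cell markers summed to 2.43 to 4.13, 2.80 to 8.79 and 2.42 to 8.23 CPM in young, aged and CASIN samples, with Cd209a at 0 in all 9 and Siglech at 0 in 8 of 9. Of the 8 macrophage and monocyte markers, which summed to 209 to 268 CPM, Lyz2 made up nearly all, and Adgre1 and C1qa stayed at or below 0.197 CPM. Of these lists, 3, 2 and 1 genes passed the filter on low counts. Leaving out the 196 cells with at least 2 defining markers of one list kept 4 of the 5 calls in aged over young (H2-DMb1 then had an edgeR adjusted p of 0.0517).

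Igkc, the immunoglobulin kappa constant gene of B and plasma cells, was higher in batch 2 within each group and followed the members only in part. It stood at 1.47, 0.0983 and 62.8 CPM in young, 3.29, 160 and 362 CPM in aged and 12.3, 83.2 and 109 CPM in CASIN Procr-positive cells. The samples with the highest Cd74 levels, aged replicates 2 and 3 and CASIN replicate 2, included the 2 highest Igkc levels. Young replicate 3, however, had far more Igkc than the other young samples, with a Cd74 level between theirs. CASIN replicate 2 had less Igkc but more Cd74 than CASIN replicate 3. In all LSK cells an Igkc UMI was found in 0.612, 0.0918 and 24.0% of young, 1.76, 47.0 and 77.3% of aged and 5.33, 28.0 and 36.6% of CASIN cells after thinning. Among cells with many Elane UMIs the share was 77.8% in aged replicate 3 and 42.1% in aged replicate 2, from 9 and 19 cells. Within samples, Procr-positive cells with none and with at least 5 UMIs of the 4 genes were compared for Igkc. The share with an Igkc UMI was 22.8 and 32.7% in CASIN replicate 2 and 50.2 and 54.9% in aged replicate 2, so it was higher in the cells with more class II in 2 of the 3 samples with the highest Cd74 levels. Over all 9 samples the share was higher in those cells in these 2 only, with means of 24.3 and 24.6%. It was 75.8 and 74.7% in aged replicate 3, 39.5 and 37.2% in CASIN replicate 3 and 23.6 and 20% in young replicate 3. In the other 4 libraries, all of batch 1, it was at most 5.06% in either kind of cell. These differences between cells were not tested.

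**Figure D4:**
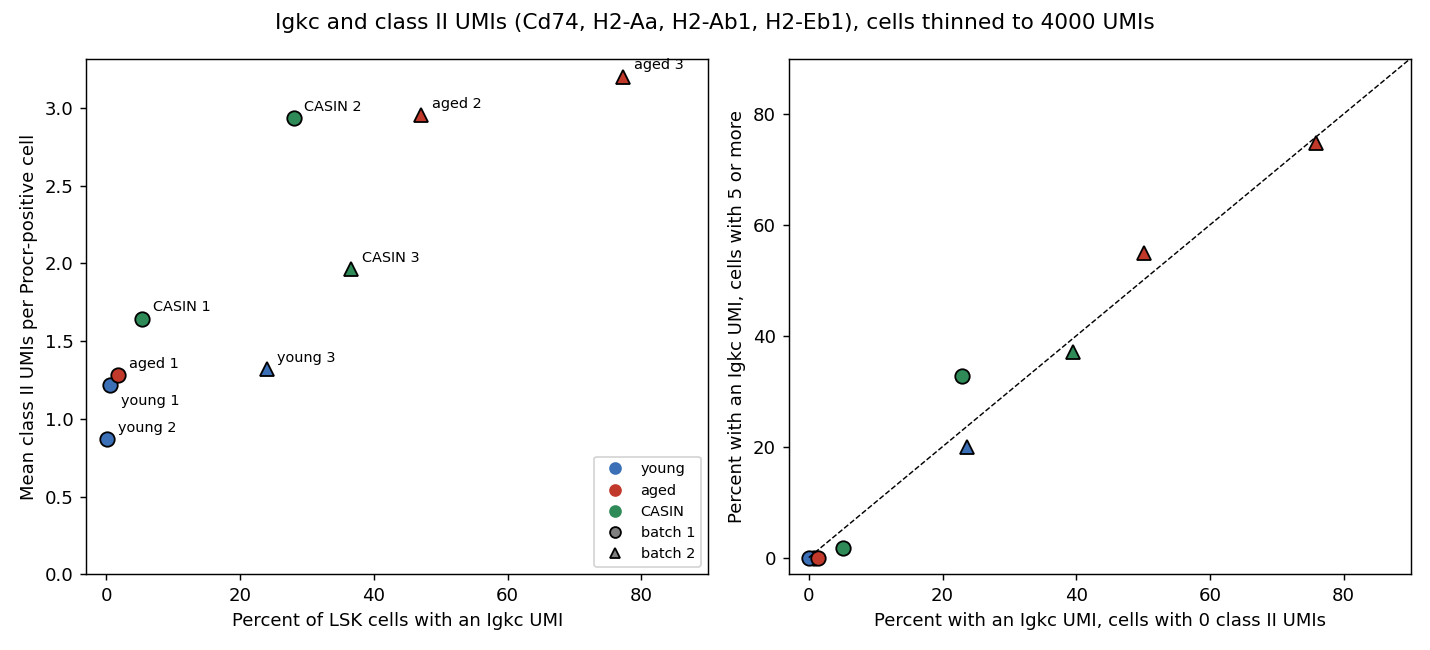
Left, share of LSK cells with an Igkc UMI (percent, horizontal axis) against the mean UMIs of Cd74, H2-Aa, H2-Ab1 and H2-Eb1 per Procr-positive cell (vertical axis), and right, the Igkc share in Procr-positive cells with 0 against those with at least 5 such UMIs (percent, with the line of equality), all after thinning to 4000 UMIs, with 1 point per sample, colours for groups and symbols for batches. Young replicate 3 combines an Igkc share of 24.0% with 1.32 class II UMIs per cell, and on the right CASIN replicate 2 stands above the line, at 22.8 and 32.7%, as does aged replicate 2, at 50.2 and 54.9%.

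Leaving out the 7132 cells with any defining marker, Igkc among them, nearly emptied the aged libraries of batch 2. Of the Procr-positive cells it kept 21 of 907 in aged replicate 3 and 166 of 909 in aged replicate 2, against 862 of 907 in aged replicate 1 and 851 of 901 in young replicate 1. On the cells left, 2 of the 10 members were called in aged over young in Procr-positive cells, H2-Aa at 0.93 (edgeR adjusted p = 0.0283) and H2-Ob at -0.98 (adjusted p = 0.0307). The log2 fold change of Cd74 was then 0.84 (edgeR adjusted p = 0.0510) and that of H2-Eb1 0.92 (adjusted p = 0.0926). Cd74 was called in CASIN over young, at 1.09 (adjusted p = 0.00575), as was H2-Aa, at 1.34 (adjusted p = 0.00107). H2-Eb1 was called there too, at 1.40 (edgeR adjusted p = 0.00393). So was H2-Ob, at -0.85 (edgeR adjusted p = 0.0256), which the main fit did not call in that comparison. The part of B-lineage or plasma cell RNA in the class II differences was not tested beyond these values.

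The wider pathway was read from gene lists set for this purpose, in Procr-positive cells. Over all genes tested there, 9.41% were called in aged over young and 16.5% in CASIN over young, and the lists' counts are given beside these shares as a description. Of 13 tested regulators of class II transcription or turnover, 0 were higher and 1 lower in aged over young, with a median log2 fold change of -0.21. The one that fell was Spi1, which encodes the myeloid and lymphoid factor PU.1, at -0.64 (SE 0.14, edgeR adjusted p = 0.0181). The RFX subunit genes, whose product holds the X box, did not pass, with Rfx5 at 0.18, Rfxap at 0.12 and Rfxank at 0.06. In CASIN over young, 1 regulator rose and 3 fell. March8, a ubiquitin ligase of surface receptors, was at 0.77 (adjusted p = 0.0335), Ezh2, a histone methyltransferase, at -0.88 (adjusted p = 0.00970), Spi1 at -0.63 (adjusted p = 0.0111) and Nfyb, an NF-Y subunit, at -0.44 (adjusted p = 0.0192).

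Of 10 antigen processing genes, 2 rose and 0 fell in aged over young, both lysosomal proteases. Ctsl stood at 61.4 to 86.8 CPM in young and 108 to 123 CPM in aged samples, a log2 fold change of 0.62 (SE 0.13, edgeR adjusted p = 0.0149). Ctsb stood at 53.5 to 75.4 CPM in young and 86.6 to 115 CPM in aged samples, at 0.56 (SE 0.11, adjusted p = 0.0122). In CASIN over young the same 2 rose, Ctsl at 0.76 (adjusted p = 0.00392) and Ctsb at 0.57 (adjusted p = 0.00645), and Ctss fell. Ctss, the protease known for the last cuts of the invariant chain, stood at 22.7 to 41.8 CPM in young, 13.4 to 22.9 CPM in aged and 14.4 to 20.4 CPM in CASIN samples, at -1.02 (SE 0.25, adjusted p = 0.0207) in CASIN over young and -0.77 (SE 0.27, adjusted p = 0.10) in aged over young.

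Interferon-gamma is the best known inducer of Ciita. Of 18 tested genes of its response, 2 rose and 0 fell in aged over young, with a median log2 fold change of 0.28. They were the kinase gene Jak2, at 0.47 (SE 0.10, edgeR adjusted p = 0.0202), and Cd274, which encodes PD-L1, at 0.94 (SE 0.24, adjusted p = 0.0342). Irf1, which passes the signal to Ciita, was at 0.34 (adjusted p = 0.339). CASIN over young had 1 that rose, the GTPase gene Irgm2, at 1.09 (adjusted p = 0.00951).

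Among 5 tested co-stimulation genes, which give the second signal to a T cell, 1 rose and 1 fell in aged over young. Cd83 rose, at 1.41 (edgeR adjusted p = 0.0124), but stood at 0 to 0.387 CPM in all batch 1 samples and at 8.73 to 24.3 CPM in batch 2. Cd86 fell, at -1.23 (adjusted p = 0.0148), and fell in CASIN over young as well, at -1.41 (adjusted p = 0.00595). None of 5 tested partners of Cd74 as a receptor passed in either comparison. In CASIN over aged none of these lists had a called gene, where edgeR called no gene at all. H2-Eb2, a further class II beta chain gene, had 9, 6 and 7 UMIs in young, aged and CASIN Procr-positive cells and was not tested.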

How the data were processed

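Per the labels, LSK cells of 9 samples were profiled with 10x Genomics 3' v3 chemistry, and the submitters' processing notes name Cell Ranger 3.1.0 and the build mm10. The authors deposited raw UMI counts per gene and cell, not normalized, of barcodes called as cells. Following the study's methods, genes in fewer than 3 barcodes were dropped and cells were kept with at most 10% mitochondrial UMIs, at most 6000 genes, 1000 to 40000 UMIs and a residual from the fit of genes on UMIs of at most 0.4. No doublets were removed. Counts were summed per sample and division and tested with edgeR 4.0.16 (R 4.3.3) quasi-likelihood fits over all 9 samples with sequencing batch as a term, TMM scaling, filterByExpr and Benjamini-Hochberg adjustment over all genes tested, with calls at an adjusted p below 0.05. DESeq2 1.42.0 was an alternative. Within-batch log2 differences are of CPM after adding 0.5 UMIs. Shares of cells were compared by two-sided exact permutation tests over samples after thinning each cell to 4000 UMIs and leaving out shallower cells. Scripts were tested on simulated data. Depth was 19237354 to 42780953 deposited UMIs per library, and intervals cover counting error only.

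The members and gene lists were chosen with earlier results of these data known. All 10 members are named in every comparison of groups by summed UMIs within a division and over all LSK cells. Of each pathway list, up to 6 called genes are named by size of change. Beyond these, genes outside the members were to be named only at a mean correlation of at least 0.15 with the 4-gene sum, which none reached. Ly6a, Vwf, Flt3 and the cell markers beside them were picked after values were seen. Replicate numbers were not used to pair samples in the main fits. Ifi30 and H2-Ea-ps were not analysed here, and the CITE-seq libraries were not used here. Values of some single genes in the lists are not reported here.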

Additional observations from a re-analysis of the deposited data

Results flagged for a closer look

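The group difference of 2 members differed between Procr-positive and Flt3-positive Procr-negative cells in a direct test of that difference. These 2 of 10 compare with 14.5% of the 12784 genes tested, a share close to that of the members. For H2-DMa, the log2 fold change of CASIN over young was lower in Procr-positive cells by -0.3143 (SE 0.09, edgeR adjusted p = 0.0207), with -0.21 in Procr-positive and 0.10 in Flt3-positive cells. For H2-Ob the difference was -0.4796 (SE 0.15, edgeR adjusted p = 0.0459), with -0.73 in Procr-positive and -0.23 in Flt3-positive cells. This comparison of CASIN with young was added after the data were seen, beside the 2 comparisons planned for the test. Neither gene was called without young replicate 1, young replicate 2, CASIN replicate 1 or CASIN replicate 3, nor with no population by batch term (0 members in each), and 1 member was called without CASIN replicate 2. The cause of either difference was not tested.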

How the results depend on the processing

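Over 491 alternatives, none of the 23 called log2 fold changes changed sign, while 77 of the 124 values that were not called did in at least 1 alternative, among them all 49 of CASIN over aged. In Procr-positive cells, aged over young (5 members called) gave 3 after thinning to 4000 UMIs, with a gate of 2 UMIs, with a mitochondrial limit of 5% and with only the 2 groups compared, 2 without cells holding any marker of another type, and 0 with no batch term. CASIN over young (4) gave 0 with no batch term. In all LSK cells, aged over young (3) gave 0 with no batch term and 1 with only 2 groups, and CASIN over young (3) gave 0 and 5. In Flt3-positive cells, aged over young (1) gave 4 after thinning, with a gate of 2 UMIs and with no filter on low counts, 3 without cells with 2 markers, 2 by DESeq2 and without cells with any marker (which keeps 9 of 372 cells in aged replicate 3 and 67 of 419 in aged replicate 2), and 0 with the gate on stem side genes, the 5% limit, no batch term and only 2 groups. CASIN over young (2) gave 4 after thinning, with the gate of 2 UMIs, no filter and only 2 groups, and 0 with the stem side gate, the 5% limit and no batch term. In double-negative cells, aged over young (1) gave 3 by DESeq2 and with no filter, 2 without either set of marker cells, and 0 with DESeq2 size factors, thinning, the 5% limit, no batch term and only 2 groups. CASIN over young (2) gave 1 with the stem side gate and the 5% limit, 4 with no filter and without cells with any marker, 5 with only 2 groups and 0 with no batch term. The difference between divisions in aged over young (0) gave 3 with the gate of 2 UMIs, and in CASIN over young (2) 4 with that gate and 0 with no population by batch term. The causes were not tested.

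The fit with the replicate block called 0 members in aged over young in Procr-positive, double-negative and all LSK cells, and 4 in both comparisons with young in Flt3-positive cells. Same-numbered samples had correlations from -0.52 to 0.19 over 9829 genes once group and batch were removed. Removing both from so few samples itself constrains these values, so they cannot decide whether same-numbered samples were paired. The main fits used the numbers as names only. Leaving out 1 replicate at a time gave 0 to 4 called members in aged over young in Procr-positive, double-negative and Flt3-positive cells and in all LSK cells, 1 to 6 in CASIN over young in Procr-positive cells and 0 to 4 in the other divisions, 0 in CASIN over aged, and 0 to 4 in the differences between divisions. In shares of Procr-positive cells, aged minus young became 6.18 points for H2-Eb1, -1.33 for H2-DMa and 0.153 for H2-Oa after thinning to 2000 UMIs, and -10.5 for H2-DMa, -5.87 for H2-DMb1, -1.79 for H2-DMb2, -5.63 for H2-Oa and -9.20 for H2-Ob without thinning. CASIN minus aged became 1.52 points for Ciita without thinning, and CASIN minus young 2.59 points with a cut of 10 UMIs in place of 5. Ciita and H2-DMb2 rest on few UMIs in Procr-positive cells, 36 to 64 and 40 to 81 per group. Scrublet's own threshold marked 67 of 15856 cells, so the planned removal of doublets was not run. Leaving out the 5% of cells with the highest scores, cells with shared barcodes and cells with 2 markers, and the batch by group test, were added after seeing the data.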

Other observations

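A few cells carried very many class II UMIs. Among thinned Procr-positive cells, 3 of 2193 young, 13 of 2686 aged and 5 of 2691 CASIN cells had at least 30 UMIs of Cd74, H2-Aa, H2-Ab1 and H2-Eb1 together, and they held 5.22, 8.54 and 5.52% of these UMIs. Of these, 1 CASIN cell had at least 2 defining markers of a B cell, dendritic cell or macrophage list. In double-negative cells, 5 young cells of 1001 held 34.0% of the UMIs of the 4 genes, and all 5 had at least 2 such markers, while 9 aged cells of 1129 held 32.3% and 3 of them had such markers, and 4 CASIN cells of 1312 held 13.6% and 0 had them. In Flt3-positive cells, 0 of 2284 young cells reached 30 UMIs, 2 aged cells of 1031 held 10.2%, of which 1 had such markers, and 2 CASIN cells of 1197 held 14.8%, both with such markers. The highest sums in a single Flt3-positive cell were 224 UMIs in aged replicate 2, 217 in CASIN replicate 2 and 199 in CASIN replicate 3.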
